A study of Homo sapiens with 12 samples.

Results

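This report describes the long intergenic non-coding RNAs (lincRNAs) that 2 human chronic myeloid leukemia cell lines, KBM7 and K562, both expressed, and how their levels compared 72 h after siRNA knockdown of USP15, a deubiquitinase. Members were selected on their raw counts. They were the rows with the biotype lincRNA that stood in the tables of both lines and had a raw count of at least 30 in every siCtrl library or in every siUSP15 library, and UCA1 and H19, which were added by name for their change in KBM7. The rule found 215 lincRNA rows of 2011 in both tables, and with UCA1 and H19, both listed as processed transcripts, 217 members of 23238 genes. Of the 215, 191 reached 30 counts in all 12 libraries, 11 did so only in the siCtrl libraries and 13 only in the siUSP15 libraries. The lowest members inside the limit were CTD-2270P14.5 and RP11-469M7.1 at 30 counts and the highest rows outside it, RP5-832C2.5, MIR8072 and RP13-270P17.3 among them, were at 29.

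KBM7 is a near-haploid line from a blast crisis and K562 an erythroid-like line, and both carry the BCR-ABL1 fusion. Each line received either siUSP15, a mixture of siRNAs that target USP15, or siCtrl, a mixture with no target, both transfected with Lipofectamine RNAiMAX, and total RNA was taken at 72 h. KBM7 had 2 libraries per group and K562 had 4. The labels do not say whether replicates were separate cultures, so p-values measure the spread between these libraries, which may be technical. Each arm was 1 siRNA pool, so the depletion of USP15 and other effects of that pool cannot be told apart.

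Most lincRNAs are transcribed by RNA polymerase II, capped, spliced and polyadenylated like messenger RNAs, but at lower levels and with no long reading frame. Some act as scaffolds of nuclear bodies, some act on genes near their own site of transcription, some host microRNAs or small nucleolar RNAs, and for many no function is known. In blood cells several have been followed as markers of lineage or of leukemia.

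Total counts were 23450607 to 29441118 per library in KBM7 and 23020401 to 43566543 in K562. USP15 in the siUSP15 libraries stood at 53.6% of its siCtrl mean in KBM7 and at 52.4% in K562, and the groups did not overlap in either line. All 10 markers of blood and leukemic progenitor cells, such as PTPRC, MYB, GATA1 and TAL1, were listed in both lines, with GATA1 at 17.5 to 31.2 normalized CPM, counts scaled to the library total, in KBM7 and 220.9 to 281.3 in K562. Of markers of other cell types, EPCAM was at 85.8 to 98.9 CPM in K562 and at most 0.08 in KBM7, and the others were at most 18.4 in either line. K562 replicates 1 and 2 stood apart from replicates 3 and 4 across the transcriptome. USP15 in replicates 1 and 2 had 276.5 and 282.6 CPM in siCtrl and 119.0 and 139.7 in siUSP15. In replicates 3 and 4 it had 357.6 and 342.4 CPM in siCtrl and 198.6 and 202.4 in siUSP15. The K562 counts were deposited under a title that mentions batch correction, but the sources used here do not say which libraries formed a batch, and the 2 sets were taken from an earlier analysis of these counts. The K562 comparison was fitted with these 2 sets as a block, and values without the block or within a set are given beside the results.

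In the GENCODE v44 annotation of GRCh38, the build of the files, 11 members hold microRNAs of the RefSeq sequence table in their exons or introns. NEAT1 (MIR612) and PVT1 (MIR1204, MIR1206 and MIR1207) overlap further microRNA genes. Their mature sequences are shown because they group these hosts by the seed, bases 2 to 8, which largely decides which messenger RNAs a microRNA binds. The counts below are of the host RNA and not of the mature microRNA. The sequences are those of RefSeq (GRCh38.p14), 5′ to 3′, with the seed in capitals. RP11-2B6.2 (chromosome 9, 94176458 to 94177892) and RP11-631N16.2 (chromosome 12, 62602752 to 62622213) both host members of the let-7 family, which share 1 seed, GAGGUAG.
let-7a-5p of RP11-2B6.2: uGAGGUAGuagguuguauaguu
let-7f-5p of RP11-2B6.2: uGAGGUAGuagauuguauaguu
let-7d-5p of RP11-2B6.2: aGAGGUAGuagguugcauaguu
let-7i-5p of RP11-631N16.2: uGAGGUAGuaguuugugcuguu

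CTD-3252C9.4 (chromosome 19, 13834516 to 13836289) is the transcript of the miR-23a, miR-27a and miR-24-2 cluster. MIR22HG (chromosome 17, 1711493 to 1717174) carries miR-22 in an exon, and H19 (chromosome 11, 1995163 to 2001470, minus strand) carries miR-675 in an exon. No seed is shared within this group.
miR-23a-3p of CTD-3252C9.4: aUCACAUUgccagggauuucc
miR-27a-3p of CTD-3252C9.4: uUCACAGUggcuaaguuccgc
miR-24-3p of CTD-3252C9.4: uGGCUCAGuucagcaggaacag
miR-22-3p of MIR22HG: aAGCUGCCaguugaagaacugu
miR-675-5p of H19: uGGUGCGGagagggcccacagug
miR-675-3p of H19: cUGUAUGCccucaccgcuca

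FTX (chromosome X, 73963955 to 74293574, minus strand), an RNA of the X inactivation center, carries miR-421 and miR-374b in exons and miR-545 and miR-374a in introns. LINC00152 and MIR4435-1HG lie apart on chromosome 2 and each hold a copy of miR-4435 with the same mature sequence, so reads of these 2 hosts may also be shared between near-identical copies.
miR-421 of FTX: aUCAACAGacauuaauugggcgc
miR-374b-5p of FTX: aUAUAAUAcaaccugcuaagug
miR-374b-3p of FTX: cUUAGCAGguuguauuaucauu
miR-374a-3p of FTX: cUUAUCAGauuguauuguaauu
miR-545-3p of FTX: uCAGCAAAcauuuauugugugc
miR-4435 of LINC00152 and MIR4435-1HG: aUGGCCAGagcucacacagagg

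The remaining hosts were LINC00969 (miR-570), MIR4453 and LINC01138 (miR-5087). For 7 of the 11 hosts a mature sequence lies inside the span given in the deposited tables, and for RP11-2B6.2, CTD-3252C9.4, LINC00152 and LINC01138 none does, since the spans of these genes differ between the annotations.

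Levels in the control libraries spread over 3 orders of magnitude, and most members were low. Mean normalized CPM in siCtrl ran from 1.06 to 628.1 with a median of 4.40 in KBM7 and from 0.986 to 1311 with a median of 5.86 in K562. A few RNAs made up much of the total. NEAT1, LINC00657 and MALAT1 together held 37.6% of the members' CPM in KBM7 siCtrl, and AC079466.1, LINC00657 and RP11-301G19.1 held 40.9% in K562 siCtrl. NEAT1, the scaffold of paraspeckles, was at 628.1 ± 115 CPM in KBM7 (SD, n = 2) and 364.8 ± 94.9 in K562 (SD, n = 4). LINC00657, the cytoplasmic RNA NORAD that binds Pumilio proteins, was at 301.2 ± 0.52 in KBM7 and 598.7 ± 65.5 in K562. CASC7 and TPTEP1, also among the highest, had 104.7 to 117.3 and 92.2 to 96.7 CPM over the KBM7 libraries, and 115.9 to 202.7 and 277.8 to 330.0 over those of K562, and passed the test described below in neither line. The lowest members were near 1 CPM, such as OSER1-AS1 at 0.94 to 1.75 and RP11-452F19.3 at 0.83 to 1.71 CPM in K562, and CTD-2538C1.2 at 0.92 to 1.46 CPM in KBM7.

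Length was set against these levels for the 116 lincRNA members whose span in GENCODE v44 was within 10% of the deposited span. On the scale of CPM per kilobase of exon, LINC00657 led in KBM7 at 55.8, followed by NEAT1 at 27.6 and LINC00998 at 25.7. In K562 AC079466.1 led at 274.4 CPM per kilobase, LINC00657 stood at 110.9, LINC00998 at 83.4 and NEAT1 at 16.02. NEAT1, with 22767 bases of annotated exon, thus ranked lower per length than by its total level. Counts per gene do not separate the transcripts of a gene. LINC00998 is typed as protein coding in v44 under the name SMIM30, which encodes a small membrane protein.

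**Figure D1:**
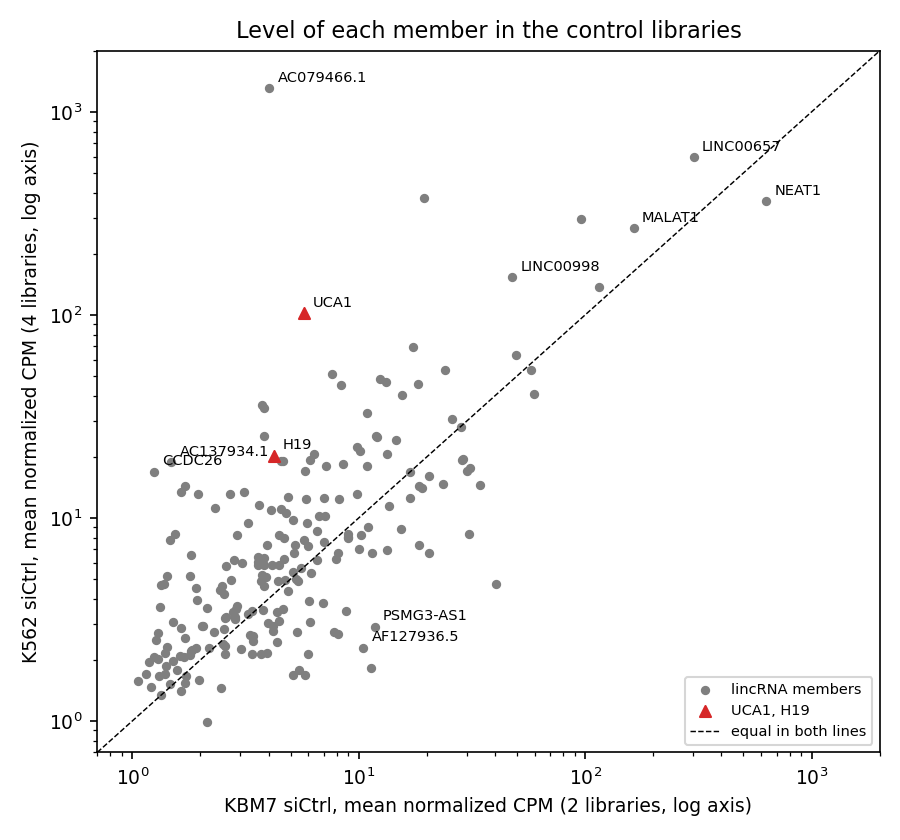
Each point is 1 member, with its mean normalized CPM in the 2 KBM7 siCtrl libraries on the x axis and in the 4 K562 siCtrl libraries on the y axis, both on log axes, and the dashed line marks equal levels. AC079466.1 lies farthest from the line, at 4.03 CPM in KBM7 and 1311 in K562.

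Both lines expressed the members, as the rule required, and differed in the level of some. The ratio of K562 to KBM7 in siCtrl had a median of 1.28, with 57 members above 2-fold in K562 and 17 above 2-fold in KBM7. The lines come in separate tables, so these ratios are a description, and the share of all genes beyond 2-fold was not computed. AC079466.1 (chromosome 19, 28606688 to 28615229) was 325.2 times higher in K562, and AC137934.1, CCDC26 and RP11-301G19.1 were also at least 10-fold higher there. CCDC26 lies downstream of MYC and is known from myeloid leukemia, and it stood at 1.24 ± 0.15 CPM in KBM7 and 16.9 ± 4.02 in K562. In the other direction RP11-215G15.5, PKI55, AF127936.5 and PSMG3-AS1 were at least 4-fold higher in KBM7, with RP11-215G15.5 at 43.2 and 37.8 CPM in the KBM7 siCtrl libraries and 4.002 to 5.353 in those of K562. UCA1 (chromosome 19, 15828961 to 15836320) had 5.75 ± 1.09 CPM in KBM7 and 101.8 ± 8.25 in K562.

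USP15 knockdown in KBM7 changed 41 of the 215 lincRNA members, 28 higher and 13 lower (edgeR quasi-likelihood test, Benjamini-Hochberg adjusted p under 0.05 over all genes). That share, 19.1%, compares with 29% of the 14980 genes tested, 13.2% higher and 15.8% lower. Over the 191 members at 30 counts in all 12 libraries the count was 36, 25 higher and 11 lower. The median log2 fold change over the 215 was 0.09, against 0.00 over all genes, and 141 of 215 were above zero. The median standard error of a member's log2 fold change was 0.15, against 0.08 over all genes. Groups of 2 libraries did not overlap for 60% of the members and for 66.5% of all genes. DESeq2 called 15 members, and 2552 of the 14980 genes. Without siCtrl replicate 1 the count fell to 17, and of the 41 calls 12 were kept without each of the 4 libraries in turn, CMB9-22P13.1, admitted through siCtrl only, among them. Such a fit left 1 library in an arm, whose spread was assumed to be that of the other group. In each such fit calls over all genes moved in the same direction as those of the members. The share of all called genes kept without each library in turn was not computed, here or in the comparisons below.

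The share of calls was lowest among members of low level, as it was for all genes. In KBM7 7.32% of the 82 members under an average of 2 log2 CPM were called, against 15.2% of all genes at that level. The calls in this class were 3 higher and 3 lower. They include the 5 called members admitted through 1 siRNA group, 3 higher and 2 lower, for which no test is given. Between 2 and 4 log2 CPM the shares were 28% of 100 members and 29.3% of genes, and above 4 they were 21.2% of 33 members and 35% of genes. In K562 the shares of members were 2.5%, 13.2% and 15.9% in the same 3 classes, with 80, 91 and 44 members, against 6.97%, 16.5% and 19.4% of all genes. These K562 calls include PRKXP1 and CCDC26, each admitted through 1 siRNA group. The share of members was below that of all genes in each class, but some were near it, such as 28% and 29.3% in KBM7. These differences were not tested, and nothing is read from them about lincRNAs.

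**Figure D2:**
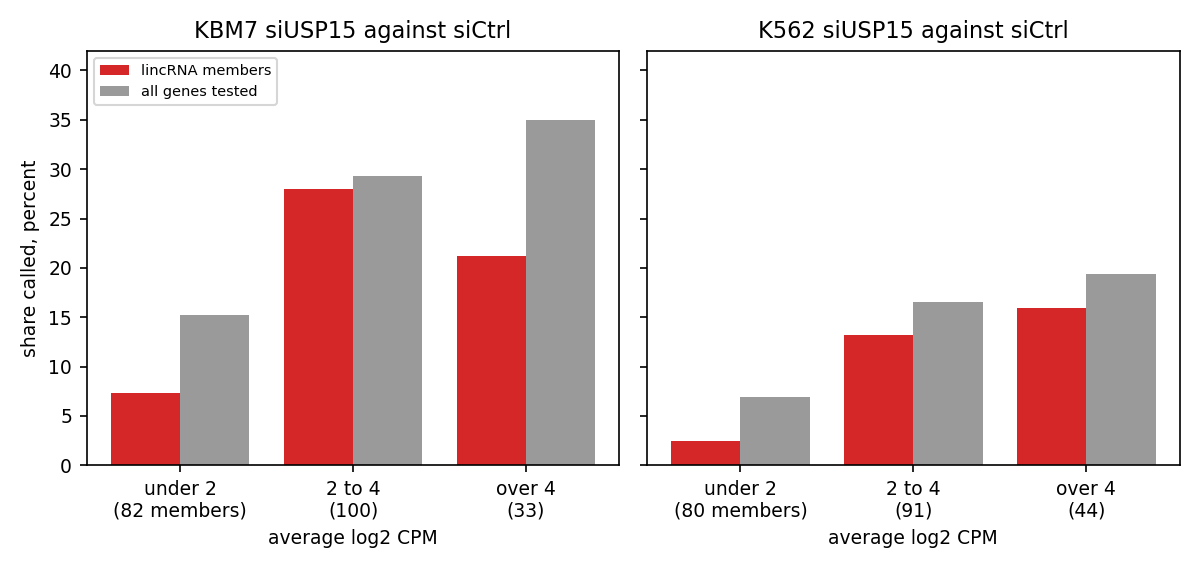
Bars give the percent of lincRNA members (red) and of all genes tested (grey) with an adjusted p under 0.05 for siUSP15 against siCtrl, in 3 classes of average log2 CPM, for KBM7 (left) and K562 with the sets as a block (right). The red bar is below the grey bar in all 6 pairs, closest in KBM7 between 2 and 4 at 28% and 29.3%. Members admitted through 1 siRNA group are counted, 5 of those called in KBM7 and 2 of those called in K562.

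UCA1 and H19 were chosen for their change in KBM7, so their values there are a description with no test. UCA1, an RNA first known from urothelial carcinoma, had 4.97 and 6.52 CPM in KBM7 siCtrl and 0.26 and 0.44 in KBM7 siUSP15. The lowest raw count of UCA1 in these libraries was 8, and the log2 fold change was -4.04. H19, an imprinted RNA expressed from the maternal allele, had 4.68 and 3.78 CPM in siCtrl and 24.4 and 13.4 in siUSP15, a log2 fold change of 2.16. Both siUSP15 libraries of H19 were above both siCtrl libraries, and they differed from each other.

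In K562 UCA1 had 112.2, 104.4, 97.3 and 93.4 CPM in siCtrl and 94.8, 102.5, 108.5 and 92.8 in siUSP15. The groups overlapped, with a log2 fold change of -0.03 (SE 0.06, edgeR adjusted p = 0.781). H19 in K562 was set apart by library set, with 38.8 and 37.0 CPM in siCtrl replicates 1 and 2 and 3.34 and 2.03 in replicates 3 and 4. The siUSP15 libraries had 48.5 and 41.5 CPM in replicates 1 and 2 and 3.997 and 4.153 in replicates 3 and 4, so that siUSP15 was above siCtrl within each set. With the sets as a block the log2 fold change of H19 was 0.31 (SE 0.10, edgeR adjusted p = 0.0611), and without siUSP15 replicate 2 it was 0.42 with an adjusted p of 0.0225 (edgeR).

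Among members with increases in KBM7, LINC01215 (chromosome 3, 108125821 to 108138610) had the highest fold of those at 30 counts in all libraries. It had 4.91 and 4.49 CPM in siCtrl and 10.5 and 8.49 in siUSP15, a log2 fold change of 1.01 (SE 0.14, edgeR adjusted p = 0.000219). AC079466.1, the most abundant member in K562, rose in KBM7 from 3.77 and 4.29 CPM to 7.41 and 7.14, by 0.85 (SE 0.13, edgeR adjusted p = 0.000573). CTD-2521M24.9 (chromosome 19, 17405694 to 17418904) rose from 13.0 and 13.6 to 23.8 and 22.4 CPM, by 0.80 (SE 0.08, edgeR adjusted p = 2.66e-05). In all 3 both siUSP15 libraries were above both siCtrl libraries, and these calls were kept without each KBM7 library in turn. CTD-2521M24.9 lies over MVB12A, whose log2 fold change was -0.21 (edgeR adjusted p = 0.104).

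LINC00174 rose from 2.99 and 3.22 CPM to 4.93 and 5.62, by 0.76 (SE 0.15, edgeR adjusted p = 0.00293). It has 33 exon blocks in v44 and overlaps exons of other annotated genes on chromosome 7, so its reads may be shared with them. RP11-332H14.2, which overlaps C2orf49 and starts 23 bases from its start on the opposite strand, rose from 6.57 and 7.67 to 10.8 and 11.4 CPM, by 0.65 (SE 0.11, edgeR adjusted p = 0.00133), whereas the log2 fold change of C2orf49 was -0.02 (edgeR adjusted p = 0.862). SNHG8, which hosts a small nucleolar RNA, had 51.5 and 47.9 CPM in siCtrl and 57.6 and 56.3 in siUSP15, a rise of 0.19 (SE 0.05, edgeR adjusted p = 0.022). The call of SNHG8 was lost without siCtrl replicate 1 (adjusted p = 0.0552, edgeR) or siCtrl replicate 2 (adjusted p = 0.189, edgeR).

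Other RNAs with higher values in KBM7 siUSP15 had entered through the siUSP15 libraries only, so that a higher value there was part of how they were chosen and no test is given. RP11-410L14.2, which starts 477 bases from VPS13B on the other strand, had 1.01 and 1.11 CPM in siCtrl and 2.38 and 1.95 in siUSP15. RP11-441O15.3 had 1.79 and 1.63 against 2.65 and 2.95, and RP11-428J1.5 had 1.92 and 2.34 against 3.54 and 3.07.

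Of the decreases in KBM7, CTD-2626G11.2 (chromosome 19, 20746923 to 20755250) had the lowest fold of those at 30 counts in all libraries. It fell from 6.37 and 6.72 CPM in siCtrl to 2.88 and 4.19 in siUSP15, with a log2 fold change of -0.91 (SE 0.17, edgeR adjusted p = 0.00184). It lies within ZNF626 on the same strand, which was not tested in KBM7. CTA-445C9.15 (chromosome 22, 26521983 to 26525036) fell from 35.2 and 33.5 to 19.55 and 23.01 CPM, with a log2 fold change of -0.70 (SE 0.08, edgeR adjusted p = 6.51e-05). Its neighbor TPST2, a tyrosylprotein sulfotransferase gene 456 bases away, had in KBM7 a log2 fold change of -0.71 (edgeR adjusted p = 1.6e-06). In K562 neither passed, with log2 fold changes of -0.005 for CTA-445C9.15 (edgeR adjusted p = 0.972) and 0.00 for TPST2 (edgeR adjusted p = 0.952).

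RP11-391M1.4, which lies 4096 bases from the ribosomal protein gene RPL14, fell from 15.4 and 15.2 CPM to 10.3 and 10.7, with a log2 fold change of -0.55 (SE 0.09, edgeR adjusted p = 0.000807). RPL14 itself did not pass, at a log2 fold change of -0.02. RP11-158H5.7 fell from 7.96 and 7.87 to 5.42 and 5.26 CPM, with a log2 fold change of -0.57 (SE 0.12, edgeR adjusted p = 0.00364), while ZSCAN30, which it overlaps on the same strand, rose by 0.30 (edgeR adjusted p = 0.0164). RP11-95D17.1 fell from 3.54 and 3.30 to 2.22 and 2.11 CPM, a call that was lost without siCtrl replicate 1 (adjusted p = 0.0908, edgeR). CMB9-22P13.1, typed as the pseudogene FAUP4 in v44, and AC006126.4, inside MARK4, had entered through the siCtrl libraries only and get no test. CMB9-22P13.1 had 1.72 and 1.71 CPM in siCtrl and 0.73 and 0.60 in siUSP15, and AC006126.4 had 1.53 and 2.07 against 1.03 and 0.997.

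USP15 knockdown in K562 changed 21 of the 215 lincRNA members with the sets as a block, 11 higher and 10 lower, or 9.77%, against 15.8% of the 13731 genes tested, 6.88% higher and 8.9% lower. Over the 191 members at 30 counts in all 12 libraries the count was 19, 10 higher and 9 lower. Without the block edgeR called 0 members and 0% of genes. In that fit 17 of 215 members had an unadjusted p under 0.05, as did 1447 of the 13731 genes tested. With the replicate number as a block it called 14 members against 7.44% of genes. Within replicates 1 and 2 the count was 50 members against 34.4% of genes, and within replicates 3 and 4 it was 3 members against 2.01% of genes. Leaving out siCtrl replicate 1, siCtrl replicate 2 or siUSP15 replicate 1 gave 10, 8 and 9 members, and 860, 555 and 820 of all genes tested. Of the 21 calls 8 were kept without each of the 8 libraries in turn, with CCDC26 and PRKXP1, each admitted through 1 siRNA group and so without a test, among them. Of the 21, 4 had no overlap between the 4 siCtrl and 4 siUSP15 libraries (AC137934.1, AF127936.3, LINC00998 and RP11-448A19.1). Over all members 5.12% had no such overlap, against 8.37% of genes.

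AF127936.3 (chromosome 21, 14746762 to 14753863) fell most in K562 and also in KBM7. In K562 siCtrl replicates 1 to 4 it had 10.6, 11.6, 6.47 and 7.45 CPM, and in siUSP15 replicates 1 to 4 it had 5.92, 4.91, 4.19 and 5.07. Its log2 fold change was -0.85 (SE 0.12, edgeR adjusted p = 0.00274), with -1.06 within replicates 1 and 2 (edgeR adjusted p = 8.74e-05) and -0.59 within replicates 3 and 4 (edgeR adjusted p = 0.0546). In KBM7 it fell from 11.6 and 10.4 CPM to 7.64 and 7.50, with a log2 fold change of -0.55 (SE 0.11, edgeR adjusted p = 0.00254). AF127936.5, a lincRNA row close by (14761710 to 14763090), had the opposite direction in KBM7, with 10.9 and 10.0 CPM in siCtrl and 14.4 and 13.4 in siUSP15, a log2 fold change of 0.40 (SE 0.10, edgeR adjusted p = 0.00839), lost without siCtrl replicate 2 (adjusted p = 0.0549, edgeR).

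AC137934.1, a lincRNA of chromosome 16 that overlaps exons of FAM157C, had 22.4, 19.4, 16.5 and 16.8 CPM in K562 siCtrl and 12.4, 12.7, 12.7 and 13.0 in siUSP15. All 4 siUSP15 libraries were below all 4 siCtrl libraries, with a log2 fold change of -0.56 (SE 0.08, edgeR adjusted p = 0.00304). RP11-448A19.1, which starts 49 bases from NRF1 on the other strand, was higher in every siUSP15 library, with 4.78, 5.27, 5.61 and 6.10 CPM in siCtrl and 7.49, 7.76, 7.58 and 8.04 in siUSP15. Its log2 fold change was 0.51 (SE 0.09, edgeR adjusted p = 0.00484), while that of NRF1 was 0.13 (edgeR adjusted p = 0.109). PRKXP1 had entered through the siUSP15 libraries only and gets no test, with 1.17, 1.37, 1.87 and 2.31 CPM in K562 siCtrl and 1.99, 2.66, 4.19 and 3.98 in siUSP15.

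Of the RNAs with nuclear or regulatory roles, NEAT1 rose in K562 and LINC00657 fell. NEAT1 had 449.5, 444.2, 277.1 and 288.3 CPM in siCtrl and 523.8, 561.1, 319.6 and 415.0 in siUSP15, a log2 fold change of 0.33 (SE 0.07, edgeR adjusted p = 0.0105). LINC00657 had 540.6, 543.8, 662.4 and 648.1 CPM in siCtrl and 430.4, 460.3, 582.6 and 593.0 in siUSP15, a log2 fold change of -0.22 (SE 0.04, edgeR adjusted p = 0.00454). The siRNA groups of both overlapped over the 8 libraries but not within either set. In KBM7 the log2 fold changes were 0.21 for NEAT1 (SE 0.09, edgeR adjusted p = 0.118) and 0.01 for LINC00657 (SE 0.04, edgeR adjusted p = 0.896), and that of NEAT1 was 0.42 without siCtrl replicate 2 (edgeR adjusted p = 0.000181) and 0.29 without siUSP15 replicate 2 (edgeR adjusted p = 1.78e-07), fits in which the spread came from the other group alone.

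MALAT1, an RNA of nuclear speckles, had 140.8 and 186.6 CPM in KBM7 siCtrl and 176.1 and 182.0 in siUSP15, a log2 fold change of 0.13 (edgeR adjusted p = 0.354) that was 0.35 without siCtrl replicate 2 (edgeR adjusted p = 0.00103), where the spread again came from the siUSP15 pair alone. In K562 its response went in opposite directions in the 2 sets. Replicates 1 and 2 had 324.9 and 304.7 CPM in siCtrl and 283.2 and 255.1 in siUSP15, a log2 fold change of -0.23, whereas replicates 3 and 4 had 195.1 and 241.4 in siCtrl and 222.7 and 339.8 in siUSP15, a log2 fold change of 0.37. The difference between the sets was 0.61 (SE 0.18, edgeR adjusted p = 0.041), and it was lost without any 1 of siCtrl replicates 1, 2 and 3 and siUSP15 replicates 2 and 4 (adjusted p from 0.0631 to 0.18, edgeR). FIRRE, an X-linked RNA of nuclear organization, stood at log2 fold changes of -0.07 in KBM7 and 0.24 in K562 and passed in neither line.

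PVT1, which lies beside MYC, had 39.8, 39.4, 53.6 and 54.6 CPM in K562 siCtrl and 52.7, 53.4, 59.1 and 53.1 in siUSP15, a log2 fold change of 0.23 (SE 0.07, edgeR adjusted p = 0.0333). The rise stood in replicates 1 and 2 (0.42, edgeR adjusted p = 0.000128) and was 0.06 in replicates 3 and 4 (edgeR adjusted p = 0.581), and the call was lost without any of siCtrl replicates 1 and 2 and siUSP15 replicates 1, 2 and 3 (adjusted p from 0.0585 to 0.132, edgeR). CCDC26 had 20.6, 20.1, 13.6 and 13.3 CPM in K562 siCtrl and 15.65, 14.5, 11.95 and 10.8 in siUSP15, and since it entered through the siCtrl libraries only, no test is given. CRNDE, known from colorectal neoplasia, fell from 15.31, 14.99, 14.36 and 12.95 to 10.5, 12.1, 11.92 and 13.12 CPM, a log2 fold change of -0.27 (SE 0.08, edgeR adjusted p = 0.045) that was lost without any of 6 of the 8 libraries (adjusted p from 0.0674 to 0.153, edgeR).

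LINC00998 (SMIM30) fell in K562 from 159.8, 160.4, 149.6 and 145.0 CPM to 139.2, 138.3, 140.7 and 133.0, a small decrease with a log2 fold change of -0.16 (SE 0.04, edgeR adjusted p = 0.0157). The call was lost without siCtrl replicate 1, siCtrl replicate 2 or siUSP15 replicate 1 (adjusted p from 0.0602 to 0.0804, edgeR). LINC00674 fell from 10.3, 9.59, 6.67 and 6.81 to 7.02, 6.15, 5.20 and 6.08 CPM, with a log2 fold change of -0.45 (SE 0.10, edgeR adjusted p = 0.0153), and was lost without the same 3 libraries (adjusted p from 0.0523 to 0.0632, edgeR). In KBM7, where LINC00674 stood at 29.5 to 32.5 CPM, its log2 fold change was 0.03 (edgeR adjusted p = 0.805).

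**Figure D3:**
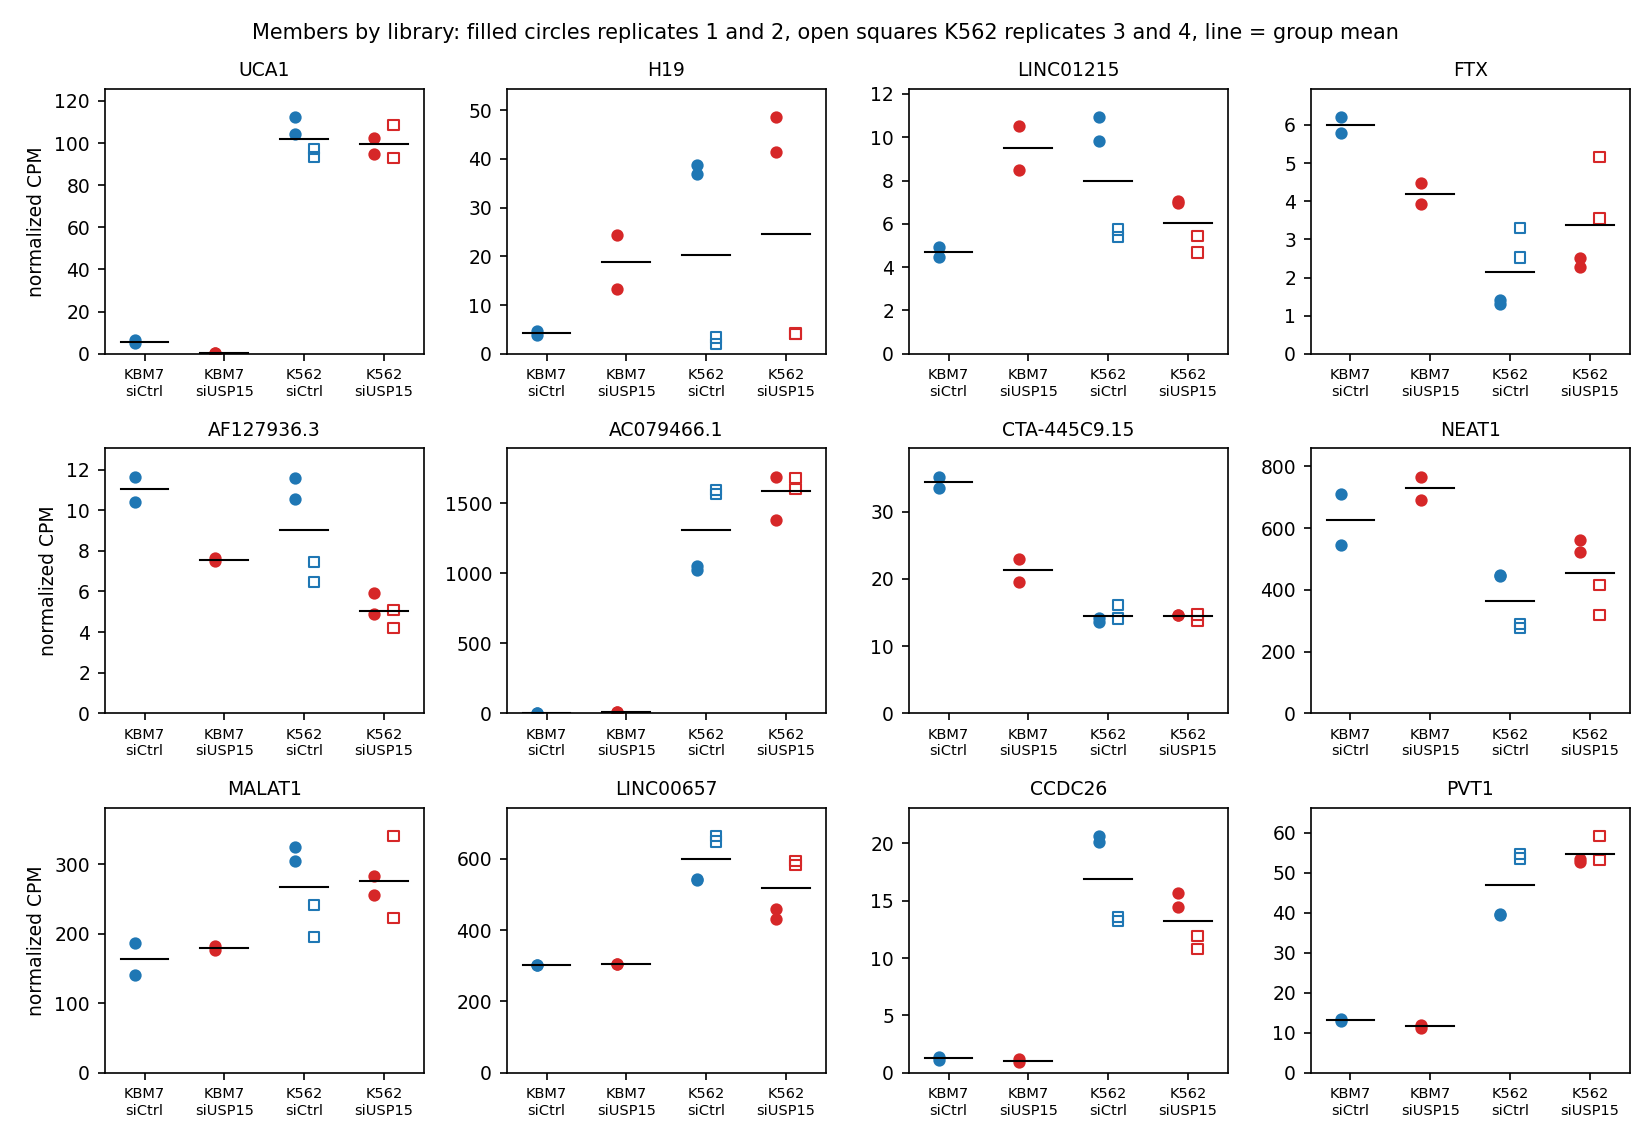
Normalized CPM (y axis, from 0) of 12 members in each library, with siCtrl in blue, siUSP15 in red, replicates 1 and 2 as filled circles, K562 replicates 3 and 4 as open squares and the group mean as a black line. H19 in K562 is split by set (37.0 to 48.5 CPM in replicates 1 and 2, 2.03 to 4.15 in replicates 3 and 4), and AC079466.1 in KBM7 lies near 0 on the scale set by K562.

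In all, 7 members passed in both lines, 34 in KBM7 only, 14 in K562 only and 160 in neither, with those admitted through 1 siRNA group included. Of all genes tested 29% passed in KBM7 and 15.8% in K562. The share of all genes that passed in both was not computed, so nothing is read from the size of the overlap. Of these 7, AC079466.1, RP11-332H14.2 and CTC-444N24.11 rose in both and AF127936.3 fell in both, and CTC-444N24.11 and CTD-2619J13.14, a further one of the 7, are named here after their values were seen. RP11-332H14.2 had 8.18, 7.67, 13.5 and 11.6 CPM in K562 siCtrl and 11.21, 11.84, 14.78 and 15.61 in siUSP15, a log2 fold change of 0.40 (SE 0.08, edgeR adjusted p = 0.00943). AC079466.1 had 1025, 1054, 1598 and 1567 CPM in K562 siCtrl and 1381, 1690, 1683 and 1605 in siUSP15, with a rise of 0.56 in replicates 1 and 2 (edgeR adjusted p = 9.16e-05) and a log2 fold change of 0.06 in replicates 3 and 4 (edgeR adjusted p = 0.375). Its blocked call in K562, at 0.31 (SE 0.09, edgeR adjusted p = 0.0343), was lost without siCtrl replicate 1, siCtrl replicate 2 or siUSP15 replicate 1 (adjusted p from 0.0856 to 0.138, edgeR).

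The other 3 of the 7, LINC01215, FTX and CTD-2619J13.14, changed in opposite directions. LINC01215 rose in KBM7, as given above, and in K562 it had 10.9, 9.85, 5.41 and 5.74 CPM in siCtrl and 6.98, 7.07, 5.43 and 4.68 in siUSP15, a log2 fold change of -0.38 (SE 0.11, edgeR adjusted p = 0.0325). The K562 decrease was lost without any 1 of the libraries of replicates 1 and 2 (adjusted p from 0.0944 to 0.126, edgeR). The difference of response between the lines, KBM7 minus K562, was 1.401 (SE 0.18, edgeR adjusted p = 5.51e-05), and it was kept without each of the 12 libraries in turn.

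FTX fell in KBM7 from 5.786 and 6.199 CPM to 3.94 and 4.47, a log2 fold change of -0.52 (SE 0.14, edgeR adjusted p = 0.0141), lost without siCtrl replicate 1, siCtrl replicate 2 or siUSP15 replicate 1 (adjusted p from 0.0532 to 0.079, edgeR). In K562 it had 1.305, 1.413, 2.52 and 3.31 CPM in siCtrl and 2.28, 2.51, 3.54 and 5.16 in siUSP15, a log2 fold change of 0.67 (SE 0.16, edgeR adjusted p = 0.0185), lost without the same 3 libraries of K562 (adjusted p from 0.0521 to 0.0647, edgeR). The difference between the lines was -1.18 (SE 0.23, edgeR adjusted p = 0.00179) and was kept without each library. JPX, an activator at the X inactivation center whose exons overlap those of FTX on the other strand, passed in neither line, with log2 fold changes of 0.11 in KBM7 and -0.03 in K562.

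Tested over all genes, the response differed between the lines for 25 of the 215 lincRNA members, 13 with the higher log2 fold change in KBM7 and 12 with the lower, or 11.6% against 16% of the 15833 genes tested, 7.94% higher and 8.03% lower. Without the K562 sets as a block 1 member passed, CTA-445C9.15 (edgeR adjusted p = 0.0304), against 1.69% of all genes tested. Without KBM7 siCtrl replicate 1, siCtrl replicate 2, siUSP15 replicate 1 or siUSP15 replicate 2 the count was 14, 15, 13 and 16, and without K562 siCtrl replicate 2 it was 16. Calls over all genes also fell in each of these fits. In the fit of all 12 libraries the count over the 191 members at 30 counts in all libraries was 21, 12 higher and 9 lower. Of the 25 calls 10 were kept without each of the 12 libraries, CMB9-22P13.1 and PRKXP1, each admitted through 1 siRNA group, among them. The largest differences after LINC01215 and FTX, among members at 30 counts in all libraries, were CTD-2626G11.2 at -1.07 (SE 0.23, edgeR adjusted p = 0.00378), AF127936.5 at 0.85 (SE 0.19, edgeR adjusted p = 0.00611) and RP11-486G15.2 at 0.82 (SE 0.21, edgeR adjusted p = 0.0149). RP11-486G15.2, which starts 101 bases from PRKACB on the other strand, had 1.72 and 2.15 CPM in KBM7 siCtrl and 2.81 and 2.67 in siUSP15, and in K562 2.83 to 5.44 in siCtrl and 2.36 to 4.03 in siUSP15, and it passed in neither line alone. Its difference was lost without KBM7 siCtrl replicate 1 or siUSP15 replicate 1 (adjusted p = 0.113 and 0.0765, edgeR).

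**Figure D4:**
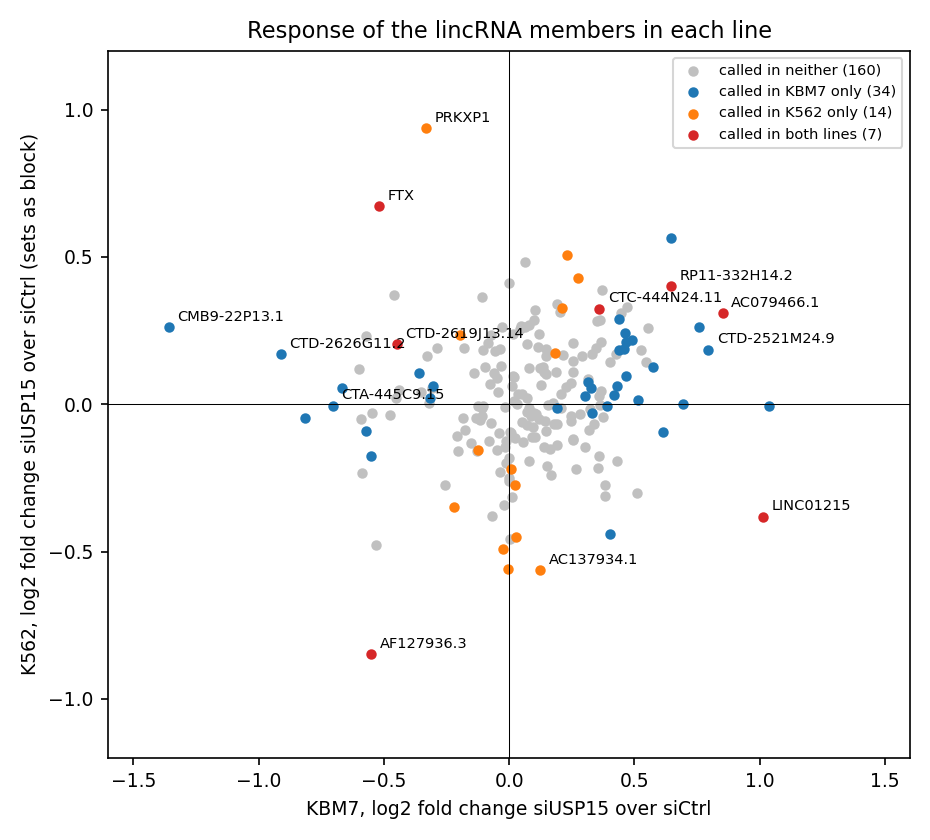
Each point is 1 of the 215 lincRNA members, with the log2 fold change of siUSP15 over siCtrl in KBM7 on the x axis and in K562, fitted with its 2 sets blocked, on the y axis, and colors give in which lines the adjusted p was under 0.05. LINC01215 lies at lower right (1.01 and -0.38), FTX at upper left (-0.52 and 0.67) and AF127936.3 at lower left (-0.55 and -0.85).

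Within K562 the response differed between the library sets for 15 of the 215 lincRNA members, 11 with the higher log2 fold change in replicates 3 and 4 and 4 with the lower, or 6.98% against 12.5% of the 14337 genes tested, 5.73% higher and 6.77% lower. The count ran from 4 to 27 when 1 library was left out. It was 4, 7, 6, 5, 9 and 6 without siCtrl replicate 1, siCtrl replicate 2, siUSP15 replicate 2, siCtrl replicate 3, siCtrl replicate 4 and siUSP15 replicate 4, and 27 without siUSP15 replicate 1. Calls over all genes also fell where these counts fell and rose without siUSP15 replicate 1. LA16c-380H5.5 fell in replicates 1 and 2, from 2.65 and 2.74 CPM to 1.396 and 1.424. Replicates 3 and 4 had 1.26 and 1.24 CPM in siCtrl and 1.43 and 1.44 in siUSP15. RP11-159D12.2 fell from 4.92 and 4.67 to 2.45 and 2.94 CPM in replicates 1 and 2 and had 8.26 and 9.04 against 8.45 and 12.5 in replicates 3 and 4. The differences between the sets were 1.15 (SE 0.30, edgeR adjusted p = 0.0228) and 1.08 (SE 0.25, edgeR adjusted p = 0.0119), and the former was lost without any 1 of 6 libraries (adjusted p from 0.0638 to 0.0766, edgeR) and the latter without siCtrl replicate 1 (adjusted p = 0.0597, edgeR).

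The siCtrl level itself also differed between the sets for some members. It was more than 2-fold higher in replicates 3 and 4 than in replicates 1 and 2 for 4 of the 215, FTX and RP11-631N16.2 among them. It was under 0.5 times the level of replicates 1 and 2 for 8, LA16c-380H5.5 and AC006126.4 among them. The share of all genes beyond these limits was not computed, so nothing is read from these counts about the members.

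**Figure D5:**
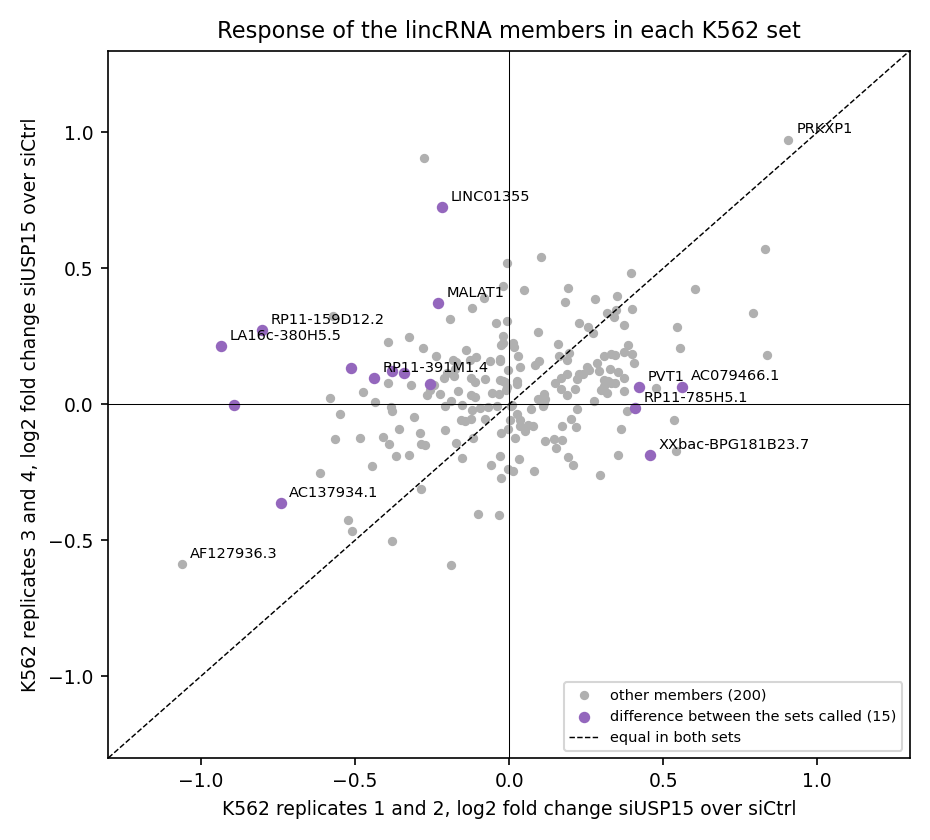
Each point is 1 of the 215 lincRNA members, with the log2 fold change of siUSP15 over siCtrl within K562 replicates 1 and 2 on the x axis and within replicates 3 and 4 on the y axis, and the dashed line marks equal responses. The 15 members in purple are those whose difference between the sets passed, such as MALAT1 at -0.23 and 0.37.

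Of the 10 hosts with a sequence in the table among the lincRNA members, FTX alone passed in either line, and its direction was opposite in the 2 lines. Of all genes tested 29% passed in KBM7 and 15.8% in K562. The median log2 fold change of these hosts was 0.04 in KBM7 and -0.01 in K562. RP11-2B6.2, host of let-7a, let-7f and let-7d, had 3.19 and 4.73 CPM in KBM7 siCtrl and 4.93 and 4.59 in siUSP15 (edgeR adjusted p = 0.268), and in K562 its values were 2.63 to 3.58 in siCtrl and 2.03 to 3.67 in siUSP15. RP11-631N16.2, host of let-7i, entered through the siUSP15 libraries only and had 3.84 and 4.85 against 4.40 and 4.35 CPM in KBM7. CTD-3252C9.4, host of miR-23a, miR-27a and miR-24-2, had 8.00 and 10.0 against 9.29 and 8.69 CPM in KBM7 and 6.79 to 9.64 against 6.68 to 8.35 in K562. The groups of these 3 hosts overlapped in both lines. MIR22HG had 5.01 and 6.72 CPM in KBM7 siCtrl and 4.70 and 4.63 in siUSP15 (edgeR adjusted p = 0.15), and LINC00152 and MIR4435-1HG, which carry the same mature sequence, passed in neither line.

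Genes of 8 lists by known role, members or not, were counted by row in the same fits. The counts stand beside 13.2% of all genes tested that rose and 15.8% that fell in KBM7, and 6.88% and 8.9% in K562, and nothing is read from a list of this size. Of 24 rows of small nucleolar RNA hosts tested in each line, 4 rose and 1 fell in KBM7, and 2 rose and 2 fell in K562, with medians of 0.11 and 0.01 on the log2 scale. SNHG7 stands as 2 rows, of which 1 rose in K562. The members SNHG15, SNHG9 and EPB41L4A-AS1 had log2 fold changes of 0.10, 0.15 and 0.14 in KBM7 and -0.11, 0.10 and 0.13 in K562 and passed in neither. Of 7 RNAs on the list of nuclear bodies and chromatin, 1 rose in KBM7 (TUG1, no member). In K562 1 rose, NEAT1, and 1 fell, LINC00657, which is on this list although described above as cytoplasmic. Of 13 microRNA hosts on the list in KBM7 2 rose, the non-member DLEU2 and H19, which was chosen for this change, and of 12 in K562 1 rose, DLEU2.

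Of 11 RNAs known to respond to p53 or DNA damage, 3 rose in KBM7 (GAS5, LINC01021 and TUG1, no members), and in K562 2 rose (NEAT1 and PVT1) and 1 fell (LINC00657). TP53TG1, a p53 target that entered through the siCtrl libraries only, had 1.24 and 1.35 CPM in KBM7 siCtrl and 1.16 and 1.00 in siUSP15. Of RNAs known in leukemia and blood cells, 3 of 15 rose and 1 fell in KBM7, with H19 and UCA1, chosen for this change, among them, and in K562, of 11, PVT1 rose and CRNDE fell, with CCDC26, which also passed, left out as admitted through siCtrl only. Of rows of RNAs that may encode a small protein, 1 of 15 rose in KBM7, and 4 of 10 fell in K562, the members LINC00674 and LINC00998 and the non-members LINC00094 and LINC01420. Of the same list the members LINC00467 and LINC01003 passed in neither line. Of RNAs that respond to interferon or NF-kB, 2 of 6 rose in KBM7 (LINC01215 and PSMB8-AS1), and in K562 NEAT1 rose and LINC01215 fell among 3. Of imprinted RNAs H19 alone was tested in KBM7 and 2 were tested in K562, where 0 passed at the adjusted threshold (edgeR).

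Many members lay beside protein-coding genes. Of the 215, 127 overlapped a protein-coding gene or lay within 5000 bases of one, 39 by overlap, and 48 started within 1000 bases of that gene's start on the opposite strand. The log2 fold changes of member and neighbor had a Spearman correlation over the 48 divergent pairs of 0.425 in KBM7 and 0.363 in K562, over the pairs apart from each other of 0.239 and 0.424, and over the overlapping pairs of 0.267 and 0.116, where the divergent pairs are also counted in one of the other classes. These are across gene pairs, which share libraries and are not independent replicates, and unrelated pairs were not computed. Strand use in the library kit and the counting is not given in the sources used here, so reads of overlapping genes cannot be told apart, and 34 members had exons that overlapped those of a protein-coding gene. In KBM7 22 of the called members had a tested neighbor, and in 7 of them the neighbor was called too, against 31.7% of the 12363 protein-coding genes tested, a share near that of the neighbors.

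Of these 7 pairs, those with a neighbor outside the member's span, 4 in all, had the same direction. Of 3 overlapping pairs 1 did, AC006126.4 and MARK4. AC006126.4 had entered through the siCtrl libraries only, which bears on its direction. Beside CTA-445C9.15 and TPST2 the pairs outside the span were the following. CTC-365E16.1 and PTCD2, 465 bases apart, rose by 0.33 and 0.38 in KBM7. NUP50-AS1 and the nucleoporin gene NUP50, 60 bases apart on opposite strands, had log2 fold changes of -0.36 and -0.15. CTC-543D15.7 and the zinc finger gene ZNF426, 3351 bases apart, rose by 0.46 and 0.27. These pairs were named after their values were seen. In K562 6 called members had a tested neighbor, and the neighbor was called in 0 of them (edgeR), against 17.6% of the 11344 protein-coding genes tested.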

How the data were processed

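The 12 libraries hold total RNA of both lines at 72 h and were grouped by the sample titles. The authors deposited raw counts per gene, 1 table for each line. The submitters' processing notes name TopHat2 2.1.0, hg38 and HTSeq, and the paper names Itreecount for counting. The deposited log2 values, fold changes and adjusted p-values were not used. No libraries of a group were identical.

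Genes were filtered with filterByExpr, scaled by TMM and tested 2-sided by edgeR quasi-likelihood (version 4.0.16, R 4.3.3), with Benjamini-Hochberg adjustment over all genes and a threshold of 0.05. KBM7 was fitted alone, K562 with the sets as a block, and interactions of siRNA with line and with set were tested. Levels are normalized CPM scaled by TMM over all 12 libraries. SE is the log2 fold change over the square root of F. Scripts were tested on simulated data. Alternatives were RLE, no filter, DESeq2 1.42.0, limma-voom 3.58.1, other blocks, other count limits and each library left out.

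Members, sets and lists were chosen with earlier results of these data known. Named were UCA1, H19, up to 8 called members per direction and line with no overlap, the 5 highest and 3 lowest, 4 members of 1 siRNA group, 5 per list, 4 per direction of the difference between lines, 3 per direction of that between sets, and their neighbors; exceptions are stated. Same-numbered libraries deviated together in K562 (r from 0.55 to 0.695 over 4 pairs) but not within sets (0.007 and 0.086), nor in KBM7 (r = 0.000978 over 2 pairs). Of the 215 lincRNA members, 175 were found in GENCODE v44, 5 of them typed as protein coding and 10 as pseudogenes.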

Additional observations from a re-analysis of the deposited data

Results flagged for a closer look

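A difference of response between KBM7 and K562 that passed the interaction test marked these named members. The test had the K562 sets as a block, and without the block CTA-445C9.15 alone passed. The difference of log2 fold changes, KBM7 minus K562, was positive for LINC01215 (1.401), RP11-410L14.2 (1.047), AF127936.5 (0.8452), RP11-486G15.2 (0.8155), CTD-2521M24.9 (0.6126), LINC00674 (0.4896), RP11-301G19.1 (0.2778) and LINC00657 (0.2341). It was negative for CMB9-22P13.1 (-1.616), PRKXP1 (-1.268), FTX (-1.182), CTD-2626G11.2 (-1.073), CTD-2538C1.2 (-0.7986), RP11-95D17.1 (-0.7148), CTA-445C9.15 (-0.6932), RP11-158H5.7 (-0.4728) and PVT1 (-0.4255). RP11-486G15.2, LINC00674, RP11-301G19.1, LINC00657, RP11-95D17.1, RP11-158H5.7, PVT1, RP11-410L14.2 and CTD-2538C1.2 were not kept when each of the 12 libraries was left out in turn. RP11-410L14.2, CMB9-22P13.1, PRKXP1 and CTD-2538C1.2 were admitted through 1 siRNA group, which bears on their direction. Their values are a description, and that they passed is not read as a result.

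A difference of response between K562 replicates 3 and 4 and replicates 1 and 2 that passed its test marked LA16c-380H5.5 (1.151), RP11-159D12.2 (1.081), LINC01355 (0.9497), MALAT1 (0.6076), RP11-391M1.4 (0.5397), AC137934.1 (0.3825), PVT1 (-0.3533), RP11-785H5.1 (-0.4206), AC079466.1 (-0.4926) and XXbac-BPG181B23.7 (-0.6396), all as log2 differences. Those of LA16c-380H5.5, RP11-159D12.2, LINC01355, MALAT1, RP11-391M1.4, AC137934.1 and XXbac-BPG181B23.7 were not kept when each library was left out in turn. Such a fit left 1 library in an arm of a set.

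A K562 library far from the other 3 of its group by Dixon's criterion was found in 8 of 112 groups of 4. For 4 values of 1 population chance gives about 1 in 20. That rate does not hold here, since each group joins libraries of both sets and the groups share the same libraries. In siCtrl these were RP11-428J1.5 at 1.275 CPM and FIRRE at 3.745 CPM in replicate 4, and MIR4435-1HG at 47.11 CPM and AF127936.5 at 2.697 CPM in replicate 1. In siUSP15 they were RP11-441O15.3 at 1.169 CPM and PVT1 at 59.09 CPM in replicate 3, and CTA-445C9.15 at 13.73 CPM and LINC00152 at 44.29 CPM in replicate 4.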

How the results depend on the processing

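In KBM7 the 41 lincRNA members called became 15 with DESeq2 and 64 when the count limit of the member rule was 10, and 17 to 56 when 1 library was left out. In K562 the 21 became 33 with no filter on low counts, 0 with no block, 50 with replicates 1 and 2 only, 3 with replicates 3 and 4 only, and 8 to 24 when 1 library was left out. The 25 members whose response differed between the lines became 1 with no block, 43 against K562 replicates 1 and 2 only (an alternative chosen after seeing the data) and 13 to 33 when 1 library was left out. The 15 whose response differed between the K562 sets became 4 to 27. With the replicate number as a block KBM7 kept a count of 41 and K562 had 14. Other alternatives, RLE and limma-voom among them, moved these counts by less than 1.5 times. Calls over all genes moved in the same direction as those of the members with DESeq2, with no block and within each K562 set. MALAT1 in K562 reversed to -0.23 in replicates 1 and 2 only, and the cause was not tested. RLE moved the median of all genes by at most 0.003 on the log2 scale. In KBM7 the median SE of a member was 0.21 under 2 log2 CPM and 0.08 above 4.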
